A study of Homo sapiens with 6 samples.

Results

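CpG methylation was described at the promoters of 8 genes of cell adhesion and epithelial-mesenchymal transition in PC-3, a human cell line derived from prostate carcinoma. The genes were CDH1, EPCAM, ESRP1, CDH2, VIM, ZEB1, CD44 and CDH13. A CpG belonged to the set when it lay within 1500 bases of the gene's hg19 transcription start and was listed with at least 10 reads in 2 or more libraries of each group. This rule, which uses read depth and no methylation value, found 354 CpGs of the 686608 in the series that pass the same depth rule. Bisulfite sequencing had been applied to genomic DNA of cells given 160 µM S-adenosylmethionine (SAM) for 5 days, in 3 libraries, and of cells given phosphate-buffered saline (PBS, the control) for 5 days, in 3 libraries. All 6 libraries come from the same line, and protein and RNA levels are not analysed here. Whether the replicates were separate cultures is not in the labels, so p-values measure only the spread between these libraries, which may be technical.

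Epithelial-mesenchymal transition is the programme by which epithelial cells loosen their junctions and gain motility. In it E-cadherin is commonly replaced by N-cadherin, a step known as the cadherin switch. Promoters of such genes often lie in CpG islands, which are mostly unmethylated in normal cells, and dense methylation of an island is associated with a silent gene. SAM is the methyl donor of DNA methyltransferases, and the study's design sets its addition to the medium against vehicle.

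CpG-dense sequence of a window of the set is shown for ZEB1, the gene of a zinc finger repressor that acts on CDH1. The promoter sequences come from RefSeq (GRCh38.p14), where 4 of the 8 genes (CDH2, CD44, VIM and ZEB1) had entries. Sequence of CDH1, EPCAM, ESRP1 and CDH13 was not used here. For ZEB1, 4 of its 7 entries could be placed, because the spacing of the listed CpGs fell on CG letters at 1 shared offset. The first sequence below is the plus strand at chr10:31318966-31319265 and runs over positions -206 to 93 from the ZEB1 start. The second is the plus strand at chr10:31319518-31319817 and runs over positions 346 to 645. Capitals mark the CpGs measured as members, 9 of 17 CG dinucleotides in the first and 15 of 35 in the second.
ZEB1 -206: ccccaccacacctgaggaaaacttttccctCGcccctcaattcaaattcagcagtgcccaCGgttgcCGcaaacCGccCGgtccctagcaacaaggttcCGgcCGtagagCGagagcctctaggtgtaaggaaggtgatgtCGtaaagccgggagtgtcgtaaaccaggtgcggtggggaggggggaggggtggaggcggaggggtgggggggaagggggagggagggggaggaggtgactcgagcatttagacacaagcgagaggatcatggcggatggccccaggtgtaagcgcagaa
ZEB1 +346: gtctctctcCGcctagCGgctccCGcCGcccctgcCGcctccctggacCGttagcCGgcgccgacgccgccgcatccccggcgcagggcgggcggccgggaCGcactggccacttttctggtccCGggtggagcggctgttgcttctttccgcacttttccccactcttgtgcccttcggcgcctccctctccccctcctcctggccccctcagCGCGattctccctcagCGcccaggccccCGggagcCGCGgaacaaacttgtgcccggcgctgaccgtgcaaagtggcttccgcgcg
At the capitals of the first sequence, methylation in single libraries lay between 0 and 1.39%. At those of the second it lay between 0 and 1.85%. CG letters in lower case did not meet the depth rule of the set.

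Depth differed between libraries. SAM replicates 1, 2 and 3 summed to 179379782, 36220663 and 120492978 reads, and control replicates 1, 2 and 3 to 150331703, 33056018 and 183523792 reads. Of the 354 members, 351, 262 and 350 were listed in the SAM libraries and 343, 245 and 349 in the control libraries, and 176 were listed in all 6. Median reads at those 176 were 104.5, 40.5 and 181 in SAM libraries, against 156.5, 46.5 and 123 in control libraries. Clustering by read coverage, cut at 2 sets of libraries, gave sets that each held both treatments. SAM replicate 3 and control replicate 2 correlated in log2 reads at r = 0.882 across CpGs. SAM replicates 1 and 2 and control replicates 1 and 3 formed the other set, with r of 0.665 to 0.908. Between the sets r ran from 0.161 to 0.64, the latter for SAM replicates 2 and 3, so the split was not sharp for SAM replicate 2. What gave rise to these sets is not stated by the labels, so differences are given below within each as well. From here on, values of a group are in the order of replicates 1, 2 and 3, and positions count bases from the transcription start, negative before it.

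Most of the members were unmethylated. The mean over the libraries listing a CpG was under 5% at 292 of 354 members (82.5%), against 46.8% of the 686608 CpGs. A mean over 80% was found at 13 members (3.67%), against 31.5% of all CpGs, and all 13 lay in CDH13. The 26 members of 20 to 80% (7.35%, against 13.4% of all CpGs) were confined to CDH2 with 14, CDH13 with 9 and ESRP1 with 3. In that range members varied between libraries with a median SD of 20.8 percentage points, against 12.1 points for all such CpGs. CpGs on the same fragments share reads, and these shares carry no test.

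A window level, the mean over its CpGs listed in all 6 libraries with equal weight, was then compared between the groups by an exact two-sided permutation test, which with 3 libraries against 3 cannot go below p = 0.10. At this setting no window separated the groups, 0 of 8, where 5.39% of 3 kb tiles of the genome had all SAM libraries above all controls and 4.01% had all below. In a quasi-binomial model of methylated and unmethylated reads over 28725 tiles and windows, 0 windows passed an adjusted p under 0.05, as did 0% of all features. The smallest adjusted p of the windows was 0.878, at CD44. Other ways of taking the level separated the groups in CDH1, CDH2, CDH13 and CD44, each at an exact permutation p of 0.10 and given with the gene. The share of tiles apart under those other ways was not computed. No window had an unadjusted p under 0.05, against 5.5% of all features, and edgeR and limma also gave 0 windows by both counts, where unadjusted they gave 3.07 and 4.02% of all features. Levels ordered the genes from CDH13 through CDH2, ESRP1, CDH1, EPCAM, ZEB1 and VIM to CD44. The mean over libraries was 82.5% in CDH13, 11.4% in CDH2 and 5.19% in ESRP1, and 2.13% or less in the other genes. CDH13 and CDH2 did not overlap with the next gene in their library values, while from ESRP1 down each gene overlapped with the next, so that part of the order is not resolved. The median tile of the genome stood at 58.5%, and 31.4% of tiles were under 5%.

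**Figure D1:**
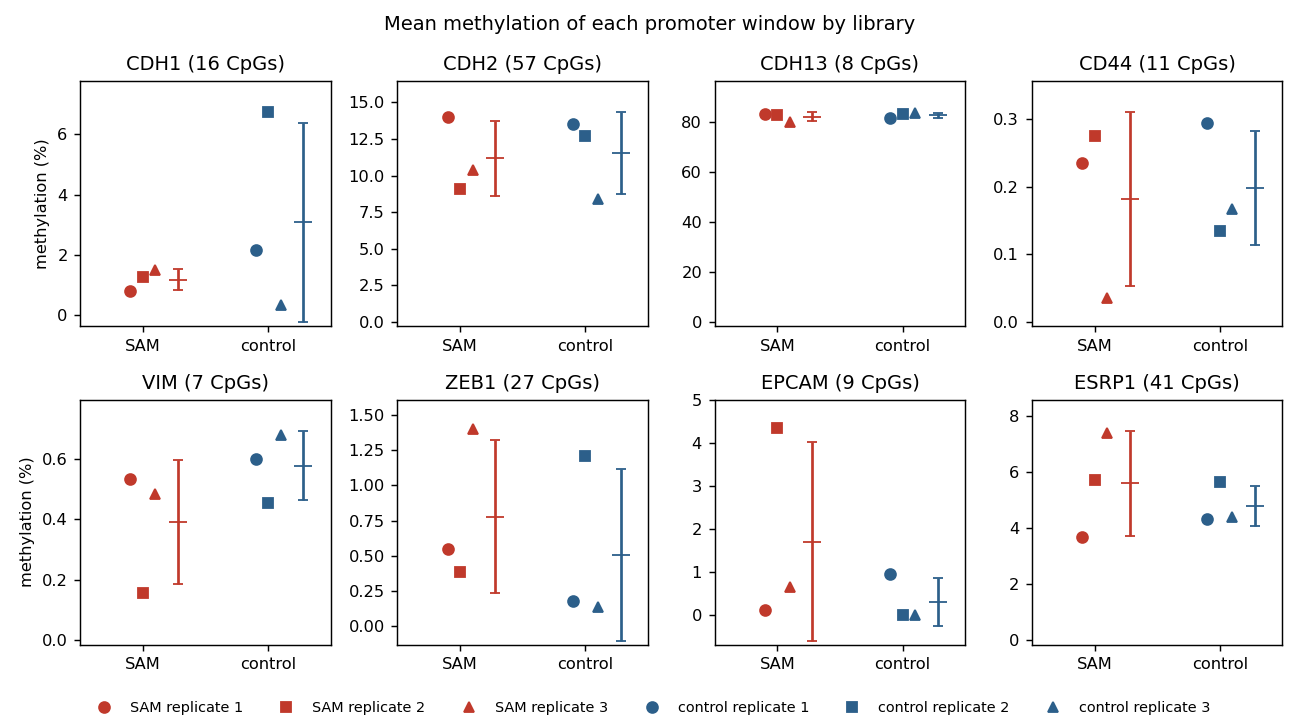
Mean methylation in percent of each promoter window for each library, SAM left of control, with group mean and SD (n = 3) beside the points and the number of CpGs listed in all 6 libraries in each title. The axes differ between genes, and in every panel the groups overlap, with CDH13 near 80% and the other genes under 15%.

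CDH1 encodes E-cadherin, the adhesion protein of epithelial junctions. Its window (chromosome 16, 68769695 to 68772695, start 68771195, plus strand) held 36 members between positions -144 and 1083, 32 of them under 5%. The 16 CpGs in all 6 libraries stood at 0.807, 1.25 and 1.48% with SAM, against 2.16, 6.75 and 0.332% in controls. The SAM libraries lay inside the range of the controls, which was set by control replicate 2. The window differed by -1.90 percentage points, SAM minus control (standard error 1.92, exact permutation p = 0.50). It was -5.27 points in the coverage set of SAM replicate 3 and control replicate 2 and -0.219 in the other set, an order kept for the genes below.

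A single CpG carried that value. At position -122 (68771073) no methylated read was found in the SAM libraries, from 35, 11 and 20 reads, against 4 of 31, 14 of 14 and 0 of 20 reads in controls. The 95% Wilson interval of the 14 reads of control replicate 2, at 100%, was 78.5 to 100%, and such intervals cover counting error only, since copied reads are not independent molecules. Without this CpG the CDH1 difference was 0.481 points (exact permutation p = 0.30). Nearby position -103 was not listed in control replicate 2 and so did not enter the window level. There control replicate 3 stood at 66.7% from 18 reads and SAM replicate 3 at 11.1%, also from 18 reads. The other libraries that listed it stood at 0%. On the plus strand alone the window stood at 1.291, 2 and 2.37% with SAM, against 1.287, 0.8 and 0.532% in controls. The difference was 1.02 points at the smallest exact permutation p of 0.10, with replicate 1 of the 2 groups almost equal. Restricted to 500 bases the difference was -12.5 points, over only 3 CpGs in all 6 libraries. These were position -122 and positions -136 and -131, which were at 0% in every library, so position -122 alone gave that value too. The direction at CDH1 thus rests on which CpGs and which strand are read.

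The opposite pattern was seen just inside CDH1. Over 3 CpGs at positions 102 to 109 (68771297 to 68771304), SAM replicate 3 had 365 methylated of 1600 base calls and SAM replicate 1 had 0 of 334. Control replicates 1, 2 and 3 had 0 of 977, 11 of 315 and 0 of 398. SAM replicate 2 did not list them. The mean over the 3 CpGs was 22.7% in SAM replicate 3, against 3.40% in control replicate 2. At position 109 SAM replicate 3 stood at 27.3% (interval 23.7 to 31.2%) and every other library that listed it at 0, with upper bounds of 1.165 to 3.32%. At position 106 it stood at 26.9% and the other libraries again at 0. Further in, at position 933, SAM replicate 3 had 7 of 41 reads methylated (17.1%) and every other library had 0. At positions 106, 109 and 933 the methylation was therefore in 1 library alone. Position 102 differed, with 13.85% in SAM replicate 3 and 10.2% in control replicate 2. At position 115, just past these 3 CpGs, control replicate 2 stood at 9.57% and SAM replicates 1 and 3 at 0.885 and 0.186%.

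EPCAM encodes the epithelial cell adhesion molecule. Its window (chromosome 2, 47594787 to 47597787, start 47596287, plus strand) held 35 members between positions 99 and 925, 34 of them under 5% and 16 with no methylated read. The 9 CpGs in all 6 libraries, between positions 219 and 269, stood at 0.128, 4.355 and 0.663% with SAM, against 0.962, 0 and 0% in controls. SAM replicate 2 lay above the rest, and the other SAM libraries lay among the controls. The difference was 1.39 points (standard error 1.37, exact permutation p = 0.50), and 0.0750 without SAM replicate 2. That library had 4 methylated of 24 reads at position 246 and 4 of 22 at position 269. Within the coverage sets the differences were 0.663 and 1.76 points. Control replicate 2 had a median of 11 reads at these CpGs and a level of 0 from 97 base calls. That would allow a share of up to 3.09% if calls were independent. Calls at neighbouring CpGs share reads, so the share allowed is larger. At position 148, the CpG with the highest EPCAM mean, methylation was 6.77, 5.26 and 5.26% with SAM, against 9.30 and 10.2% in control replicates 1 and 3. Control replicate 2 did not list it, and the adjusted p was 0.817. The EPCAM CpGs with the smallest p, at positions 318 and 156, were methylated in 1 library each, at 5.56% in control replicate 2 and 3.97% in control replicate 3.

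ESRP1 encodes an epithelial splicing regulator, one of whose known targets is CD44 pre-mRNA. Its window (chromosome 8, 95651864 to 95654864, start 95653364, plus strand) held 44 members between positions -840 and 1069, 34 of them under 5%, and 41 were listed in all 6 libraries. They stood at 3.67, 5.69 and 7.40% with SAM, against 4.33, 5.62 and 4.41% in controls. The SAM libraries spanned the controls on both sides. The difference was 0.802 points (standard error 1.16, exact permutation p = 0.60), with 1.78 and 0.313 in the coverage sets and -0.104 without SAM replicate 3.

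Methylation at ESRP1 was patchy rather than uniform. Over 5 CpGs at positions 673 to 707 it was 13.4, 19.8 and 30.75% with SAM, against 10.9, 25.3 and 14.4% in controls, a difference of 4.45 points (standard error 6.68, exact permutation p = 0.60). Within that stretch, position 707 (95654071) stood at 28.8, 33.3 and 36.5% with SAM, against 1.82, 32.7 and 0% in controls. Control replicate 2 lay among the SAM libraries there, and the difference of 21.4 points had an adjusted p of 0.817. At the neighbouring position 673, where ESRP1 had its highest mean, the values were 18.0, 0 and 38.8% with SAM, against 10.5, 30 and 52.5% in controls, so the order of libraries changed within the stretch.

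The most deeply read ESRP1 stretches varied far less. Over 6 CpGs at positions 998 to 1037, with a median of 192 to 3124 reads per library, methylation was 7.85, 7.66 and 6.72% with SAM, against 7.64, 5.57 and 9.06% in controls. Over 5 CpGs at positions -542 to -502, with medians of 324 to 7638 reads, it was 2.07, 2.06 and 2.53% with SAM, against 2.42, 2.24 and 2.40% in controls. The differences were -0.0157 points (standard error 1.07, exact permutation p = 1) and -0.133 points (standard error 0.166, exact permutation p = 0.40). Upstream, position -821 (95652543) had the highest mean, at 9.65, 13.7 and 17.5% with SAM, against 38.2, 22.2 and 8.66% in controls. The groups overlapped at that CpG as well, and in control replicate 3 position -805 stood higher, at 19.7%. The ESRP1 CpGs with the smallest p, at positions 1050 and -807, were methylated in SAM replicate 3 alone, at 10.55 and 2.92%. At position 1067 SAM replicate 2 stood at 45.45%, from 22 reads, and SAM replicate 3 at 1.67%, with 0 in every other library.

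CDH2 encodes N-cadherin, the mesenchymal counterpart of E-cadherin in the cadherin switch. Its window (chromosome 18, 25755945 to 25758945, start 25757445, minus strand) held 96 members between positions -724 and 1257, 76 of them under 5% and 42 with no methylated read. The 57 CpGs in all 6 libraries stood at 14.0, 9.10 and 10.4% with SAM, against 13.5, 12.7 and 8.37% in controls. Both groups spread over the same range. The difference was -0.369 points (standard error 2.18, exact permutation p = 1), with -2.34 and 0.618 in the coverage sets. It was above 0 without SAM replicate 2 (0.665), SAM replicate 3 (0.0253), control replicate 1 (0.624) or control replicate 2 (0.224). Restricted to CpGs within 500 bases, CDH2 stood at 1.295, 0.9215 and 1.01% with SAM, against 1.83, 3.42 and 1.42% in controls. The groups were apart there, by -1.15 points at the smallest exact permutation p of 0.10. Among these CpGs, positions 80, 85 and 90 stood at 27.8, 31.6 and 21.05% in control replicate 2, from 18 or 19 reads. In control replicate 1 they stood at 20.6, 0 and 0%, and in control replicate 3 and every SAM library at 0%. Averaged without these CpGs, SAM replicate 1 lay above control replicates 1 and 2, so the groups then overlapped. No test was run on that reduced set.

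Most CDH2 methylation lay in 1 short stretch of 15 CpGs at positions 636 to 691 (25756754 to 25756809). Its 14 CpGs in all 6 libraries stood at 53.8, 34.7 and 39.1% with SAM, against 49.9, 42.5 and 30.15% in controls. The group means were 42.5% ± 10 with SAM and 40.9% ± 9.97 for the controls (SD, n = 3 each), a difference of 1.68 points (standard error 8.15, exact permutation p = 0.80). Single CpGs in single libraries covered the whole range from 0 to 100%. The CpGs at positions 639 and 641 moved together, at 52.9, 4.08 and 33.2% and at 52.9, 4.08 and 31.95% with SAM, against 62.4, 37.0 and 55.3% and 62.7, 37.4 and 55.3% in controls. Their differences, -21.45 and -22.14 points, were the largest of CDH2 and had an adjusted p of 0.817. Position 649, with the highest CDH2 mean, stood at 79.6, 100 and 54.6% with SAM, against 76.5, 44.2 and 57.4% in controls. Position 680, between methylated neighbours, was at 0% in all 3 SAM libraries and in control replicates 1 and 3, and at 6.58% in control replicate 2. Median reads over the stretch ran from 48 in SAM replicate 2 to 1142 in SAM replicate 3.

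**Figure D2:**
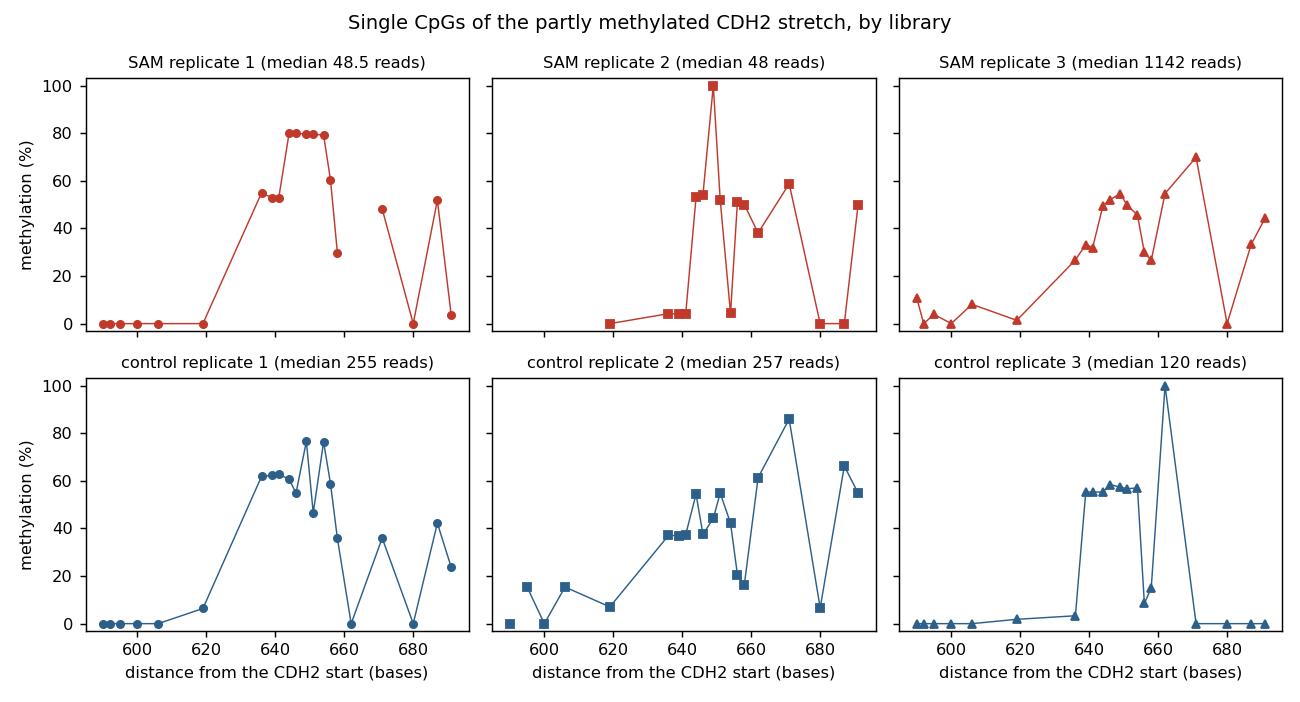
Methylation in percent of single CpGs against distance in bases from the CDH2 start, SAM libraries in the upper panels and control libraries in the lower ones, with median reads over positions 636 to 691 in each title. Every library steps up at or after position 636, and the heights of single CpGs differ between libraries of the same group.

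Just before the step CDH2 was close to unmethylated, though not at every CpG nearer the start. Positions -169 and -161 stood at 6.97 to 15.7% in every library. Over the 22 members at positions 438 to 619, the 11 in all 6 libraries stood at 0.657, 0.671 and 0.7% with SAM, against 1.26, 2.71 and 2.09% in controls. All SAM libraries lay below all controls, a difference of -1.34 points with a standard error of 0.421 at the smallest exact permutation p of 0.10, with -2.01 and -1.01 in the coverage sets. The bounds of this stretch were chosen after its values were seen, so the p describes it and supports nothing. At position 619 (25756826), the last CpG before the step, methylation was 0, 0 and 1.37% with SAM, against 6.37, 7.04 and 1.82% in controls, from 48 to 1165 reads. It had the smallest unadjusted p of the CDH2 members and an adjusted p of 0.817. The next smallest was at position -339, where control replicate 1 had 27 of 989 reads methylated and the other libraries none.

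VIM encodes vimentin, the intermediate filament protein used as a mesenchymal marker. Its window (chromosome 10, 17268758 to 17271758, start 17270258, plus strand) held 26 members, all under 5% and all between positions 738 and 1382, so the start itself was not covered. The 7 CpGs in all 6 libraries stood at 0.531, 0.156 and 0.485% with SAM, against 0.600, 0.454 and 0.679% in controls. The groups overlapped. The difference was -0.187 points (standard error 0.135, exact permutation p = 0.30), with 0.0313 and -0.296 in the coverage sets. These CpGs had a median of 63 to 1107 reads per library. The largest VIM difference at a single CpG in all 6 libraries was -1.28 points, at position 1311. The next, at position 1322, was 0.367 points. The smallest p were at position 1333, with 0.261, 0 and 0% with SAM against 0.447, 0 and 0.785% in controls, and at position 1197, methylated by 1 read each in SAM replicates 1 and 2.

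ZEB1 showed as little. Its window (chromosome 10, 31606601 to 31609601, start 31608101, plus strand) held 73 members between positions -837 and 1154, all of them under 5% and 40 with no methylated read. The 27 CpGs in all 6 libraries stood at 0.551, 0.384 and 1.40% with SAM, against 0.178, 1.205 and 0.134% in controls. SAM replicate 3 and control replicate 2, the libraries of 1 coverage set, had the highest values of their groups. The difference was 0.272 points (standard error 0.470, exact permutation p = 0.50), with 0.1925 and 0.311 in the coverage sets and -0.0383 without SAM replicate 3. At position 848 (31608949) SAM replicate 3 had 18 of 61 reads methylated (29.5%, interval 19.6 to 41.9%) and every other library had 0, from 13 to 46 reads. At position 139 the only methylated libraries were those of the same coverage set, with 5.85% in SAM replicate 3 and 18.0% in control replicate 2. At position 726, next in p, the values were 0.955, 4 and 0% with SAM, against 0.279, 0 and 0% in controls. The sequences printed above cover 9 and 15 of the 73 members, and none of these exceeded a library value of 1.85%.

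CD44 encodes the hyaluronan receptor, a surface protein of migrating and stem-like cells. Its window (chromosome 11, 35158917 to 35161917, start 35160417, plus strand) held 14 members between positions 377 and 664, 13 of them under 5%, and had the lowest level of the set. The 11 CpGs in all 6 libraries stood at 0.235, 0.274 and 0.0355% with SAM, against 0.294, 0.134 and 0.167% in controls. The groups overlapped, and the difference was -0.0166 points (standard error 0.0886, exact permutation p = 0.90), with -0.0982 and 0.0242 in the coverage sets. It was above 0 without SAM replicate 3 (0.0564) or control replicate 1 (0.0313). With each library's own members CD44 stood at 0.185, 0.274 and 0.0279% with SAM, against 0.401, 0.6545 and 1.39% in controls. The difference was then -0.653 points. Only SAM replicate 2 averaged fewer CpGs, 11 against 14 in the other libraries. Of the members added to the 11, only position 573 had methylated reads, at 2.38, 7.69 and 17.65% in controls and 0% in SAM replicates 1 and 3. On the plus strand alone CD44 stood at 0.4024, 0.4403 and 0.1302% with SAM, against 0.4412, 0.4902 and 0.612% in controls. That difference was -0.19 points, with SAM replicate 2 just below control replicate 1. In both of these settings the groups were apart at the smallest exact permutation p of 0.10.

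Over 7 CD44 CpGs at positions 377 to 421 no methylated base was called in any library. The calls numbered 703, 396 and 1159 with SAM, which would allow shares of up to 0.427, 0.758 and 0.259% if calls were independent. In controls they numbered 969, 207 and 620, which would in the same way allow up to 0.310, 1.45 and 0.484%. Calls at neighbouring CpGs share reads, from a median of 31 to 177 per library, so larger shares are allowed. At position 634 (35161051) methylation was 0.906, 0.676 and 0% with SAM, against 1.03, 1.47 and 1.33% in controls, and all SAM libraries lay below all controls by 0.75 points in mean with an adjusted p of 0.817. At position 573, the highest CD44 mean, SAM replicates 1 and 3 had 0 methylated reads of 23 and 26, against 1 of 42, 1 of 13 and 6 of 34 in controls. SAM replicate 2 did not list it. At position 656, with the smallest CD44 p, no library exceeded 0.391%, and at position 426, with the largest difference after position 634 among those in all 6 libraries, it was 0.388 points.

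**Figure D3:**
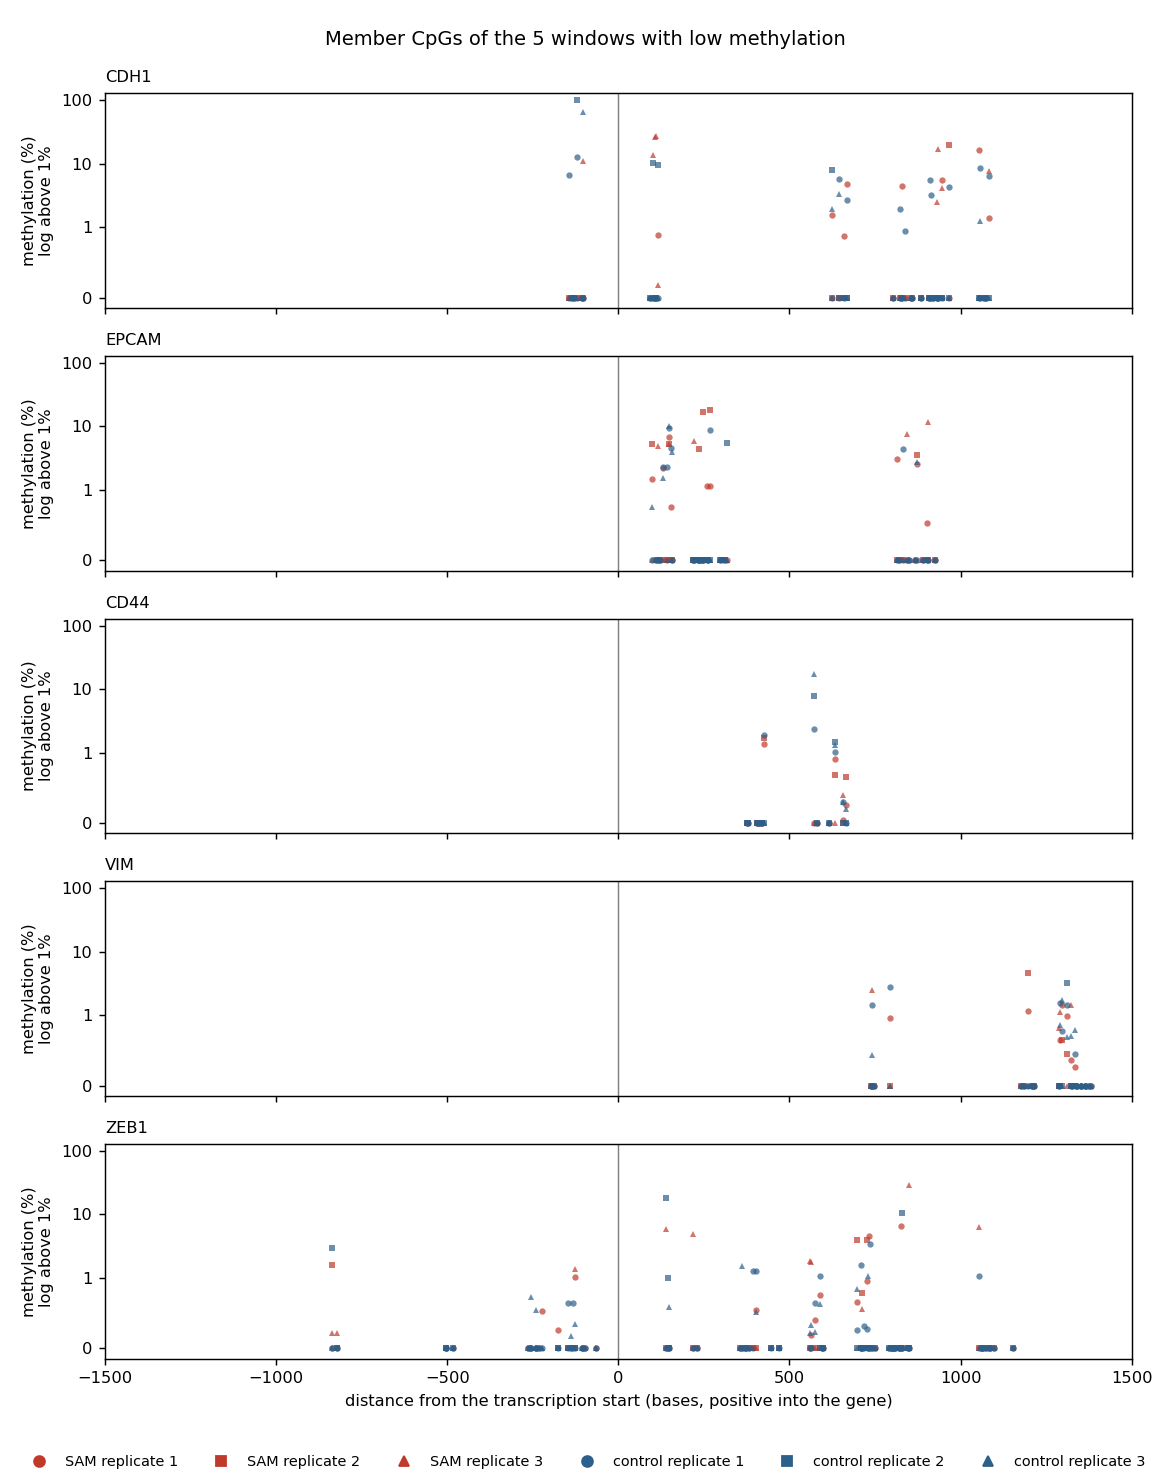
Methylation in percent of member CpGs of CDH1, EPCAM, CD44, VIM and ZEB1 against distance in bases from the transcription start (linear up to 1% and logarithmic above), by library. Most points lie at 0. At each CpG with a value above 20% a single library exceeds that level, though others can be methylated below it. Examples are CDH1 position -122 in control replicate 2, CDH1 position -103 in control replicate 3 and ZEB1 position 848 in SAM replicate 3.

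CDH13 encodes T-cadherin, a cadherin anchored to the membrane by lipid, without the cytoplasmic tail of the others. It was the only gene of the 8 with a highly methylated stretch. Its window (chromosome 16, 82658899 to 82661899, start 82660399, plus strand) held 30 members between positions 277 and 1478, 13 of them over 80% and 9 between 20 and 80%. The 8 CpGs in all 6 libraries stood at 83.3, 83.1 and 80.1% with SAM, against 81.6, 83.3 and 83.7% in controls. The difference was -0.696 points (standard error 1.22, exact permutation p = 0.60), with -3.18 and 0.548 in the coverage sets and 0.350 without SAM replicate 3. Each library's own members gave 57.7, 67.0 and 64.5% with SAM, against 57.3, 59.2 and 59.7% in controls, and so a difference of 4.36 points, but libraries then average different CpGs. On the minus strand alone CDH13 stood at 94.9, 94.6 and 91.9% with SAM, against 95.45, 95.2 and 95.6% in controls, a difference of -1.62 points with the groups apart at the smallest exact permutation p of 0.10.

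The CDH13 level depended on distance. From position 277 to 435 (82660676 to 82660834) the 17 CpGs had means of 47.3 to 99.5%. The 7 of them in all 6 libraries, at positions 366 to 401, stood at 94.75, 94.6 and 91.35% with SAM, against 92.85, 95.15 and 95.1% in controls. These are 93.6% ± 1.93 with SAM and 94.4% ± 1.32 for the controls (SD, n = 3 each), a difference of -0.792 points (exact permutation p = 0.50). The 5 CpGs at positions 789 to 845, read 10 to 23 times in the 4 libraries that listed them, ranged from 0 to 100% in single libraries, and position 803 among them was at 100% in all 4. The 8 CpGs from position 950 to 1478 had means of 0 to 12.03%, and at position 961 control replicate 1 stood at 27.1% with 0 in the other libraries that listed it. The last of them was read 42 to 1024 times and stood at 3.13, 2.50 and 1.16% with SAM, against 3.22, 0 and 3.63% in controls.

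Within the methylated stretch position 366 (82660765) was the least methylated of the 7 CpGs in all 6 libraries. It stood at 78.95, 72.5 and 65.7% with SAM, against 83.0, 88.5 and 79.5% in controls, from 40 to 312 reads. All SAM libraries lay below all controls, by 11.3 points in mean with a standard error of 4.64 and an adjusted p of 0.817. At position 397 the values were 100, 100 and 98.4% with SAM, against 88.0, 96.7 and 100% in controls, and the groups overlapped.

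**Figure D4:**
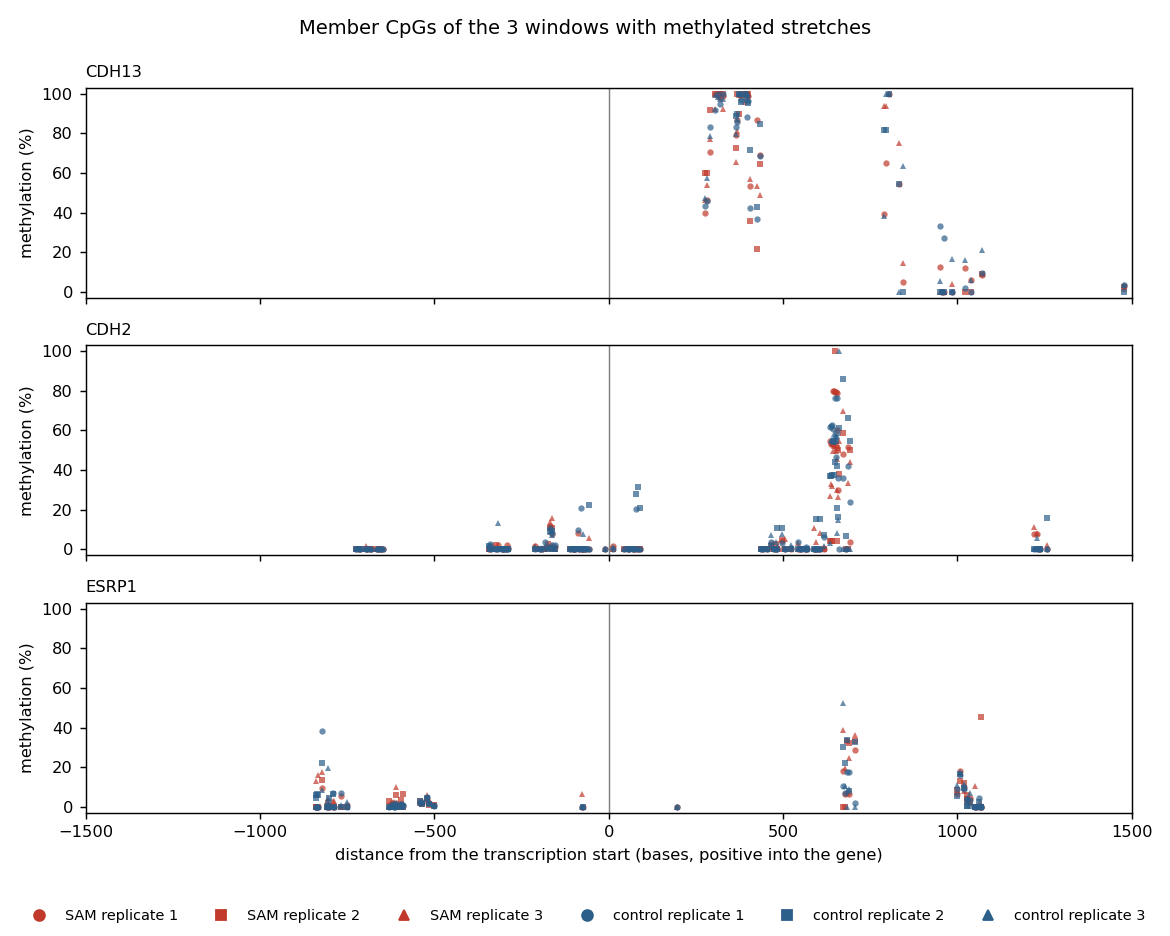
Methylation in percent of member CpGs of CDH13, CDH2 and ESRP1 against distance in bases from the transcription start, by library, with a grey line at the start. CDH13 is high up to position 435 and low from position 950, CDH2 has a peak at positions 636 to 691, and ESRP1 has low patches at positions 673 to 707 and 998 to 1037.

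Taking the 176 CpGs of all genes by distance gave no separation of the groups either. Within 500 bases of a start, 71 CpGs of 6 genes averaged 10.04% ± 0.335 with SAM, against 11.1% ± 1.46 for the controls (SD, n = 3 each; exact permutation p = 0.20). More than 500 bases upstream, 31 CpGs averaged 1.92% ± 1.07 with SAM, against 2.13% ± 0.324 for the controls (SD, n = 3 each; exact permutation p = 0.80). More than 500 bases downstream, 74 CpGs averaged 10.95% ± 1.30 with SAM, against 9.92% ± 1.95 for the controls (SD, n = 3 each; exact permutation p = 0.60). The high values near starts come from CDH13 and those downstream from CDH2 and ESRP1.

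Single members were tested in the quasi-binomial model over 490919 CpGs of the series. Of the 354 members, 211 could be tested and 143 could not, 142 of them because no methylated read was found. The model called 0 members at an adjusted p under 0.05, as it did 0% of all CpGs, and the smallest adjusted p of a member was 0.817. An unadjusted p under 0.05 was reached by 16 members, 7.58% of those tested, against 5.55% of all CpGs. The edgeR test called 0 of 132 members (4 unadjusted, 3.03%, against 2.81% of all CpGs) and limma 0 of 211 (7 unadjusted, 3.32%, against 4.32%). Of the 16, 7 had the higher mean with SAM and 9 the lower. Methylated reads came from 1 library alone at 7 of the 16, which was SAM replicate 3 at 6 of them, in CDH1, ZEB1 and ESRP1. Those 6 cannot be tested without that library, since no methylated read is left. Members with an unadjusted p under 0.05 numbered 4 of 164 without SAM replicate 3 (2.44%, against 4.64% of all CpGs). They numbered 25 of 197 without control replicate 2 (12.7%, against 6.77%) and 18 of 154 without control replicate 3 (11.7%, against 7.61%). Without SAM replicate 1, SAM replicate 2 or control replicate 1 the counts were 10 of 165 (6.06%, against 5.22%), 15 of 203 (7.39%, against 4.88%) and 9 of 150 (6%, against 8.67%). With each library left out 0 members were called, against 0.000635% of all CpGs without SAM replicate 2 and 0% without each other library.

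Of 132 members listed in all 6 libraries with both kinds of read, 2 had all SAM libraries above all controls (1.52%, against 3.53% of all such CpGs) and 3 had all below (2.27%, against 2.87%). Neither share stood above the background. The 2 above were CDH2 position -174, with 1.07, 2.63 and 1.92% with SAM against 0.99, 0 and 0.733% in controls, and ESRP1 position -611. At that ESRP1 CpG methylation was 2.12, 6.06 and 10.3% with SAM, against 1.65, 0 and 2.02% in controls. The 3 below were CDH2 position 619, CDH13 position 366 and CD44 position 634, given above. Across the tested members the median difference was -0.0974 points, with 98 higher and 112 lower with SAM, against 0.0745 points and 252850 higher and 237882 lower over all CpGs tested.

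**Figure D5:**
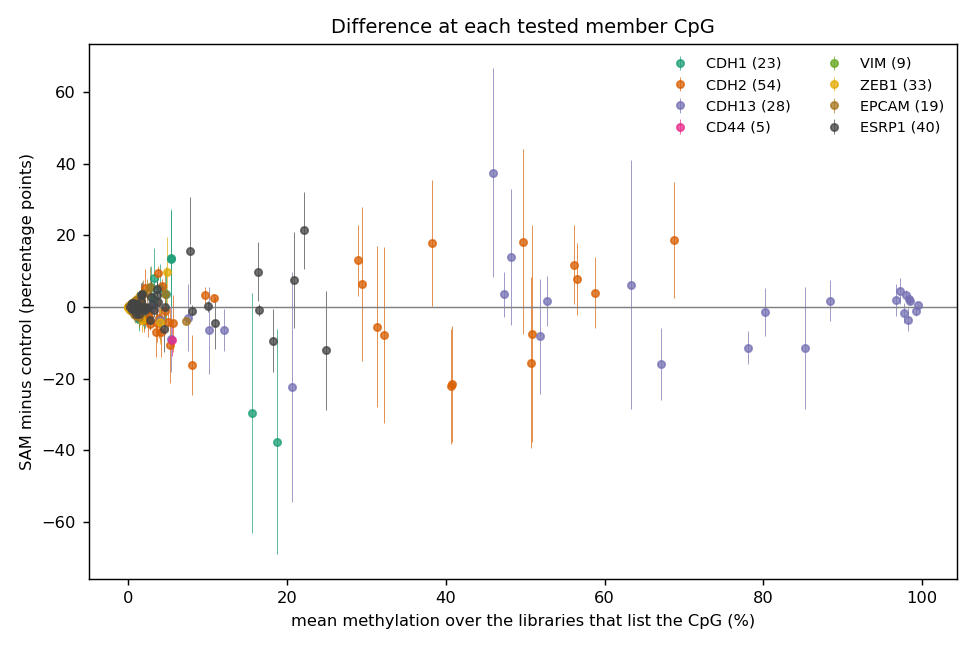
Difference in methylation, SAM minus control in percentage points with its standard error, against the mean level in percent for the 211 tested member CpGs, coloured by gene, with the number of CpGs in the legend. Most points under 5% lie close to 0, the CDH2 and CDH13 CpGs of 20 to 80% scatter to both sides with wide errors, and the CDH13 CpGs near 100% again lie close to 0.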

How the data were processed

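CpG methylation was measured in 3 SAM and 3 control libraries of PC-3 cells. The deposited lists give, per the file headers, a read count (coverage) for each cytosine and the percent of C and of T among its reads. Bismark 0.7.4, methylKit 0.5.3, CASAVA 1.8.2, FastQC 0.10.0 and hg19 are named per the submitters' processing notes, with no role or order. For library type and duplicate removal nothing is given in the sources used here. The lists hold no position under 10 reads.

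Strands were joined and methylated counts recovered from coverage and percent. Window levels, over CpGs listed in all 6 libraries, were compared by exact permutation. CpGs, 3 kb tiles with at least 3 CpGs and the windows were fitted with a quasi-binomial model (overdispersion moderated by limma 3.58.1, R 4.3.3), adjusted by Benjamini-Hochberg over all features. The model was also run on simulated data, in which only features of intermediate methylation were changed. That run does not show how the model performs at nearly unmethylated members, which are most of the set. Each feature needed 2 libraries a group. Alternatives were edgeR 4.0.16, limma on log2 ratios with a pseudocount of 0.5, 20 reads, a replicate block, a coverage term and each library left out. In each gene the CpGs named were the 2 with the smallest p, the 2 with the largest difference among those in all 6 libraries and the highest by mean; other CpGs and all stretches were chosen after their values were seen. The members and lists were chosen with earlier results of these data known. The degrees of freedom of libraries fitted at 0 or 100% were left out and the overdispersion was kept at or above 1, both refinements made after the files were seen. No hg19 gene annotation was used here, so exons and introns are not given. The rest ran in Python 3.11.15 with scipy 1.17.1, pandas 2.3.3 and numpy 2.4.6.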

Additional observations from a re-analysis of the deposited data

How the results depend on the processing

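The count of called members and of called windows was 0 with edgeR, limma, 20 reads, 5 CpGs per tile, the coverage term, the replicate block and each library left out. Over the whole series 3 of 472619 CpGs, none a member, were called without SAM replicate 2. Members with an unadjusted p under 0.05 ranged from 4 of 164 (2.44%, against 4.64% of all CpGs) without SAM replicate 3 to 25 of 197 (12.7%, against 6.77%) without control replicate 2. The groups were apart, at an exact permutation p of 0.10, in CDH1 and CD44 on the plus strand, CDH13 on the minus strand, CDH2 within 500 bases and CD44 over every CpG of the rule. These came from 7 to 10 settings per gene beside the main one and the libraries left out. The share of tiles apart was computed at the main setting alone. Window differences (percentage points, SAM minus control) changed sign, none being called, as follows, and the cause was not tested. CpGs weighted by reads gave 2.48 in CDH13, -0.141 in ZEB1, -0.0077 in ESRP1 and -0.0535 for CpGs more than 500 bases downstream. A minimum of 20 reads gave 0.316 in CDH2 and -0.143 in ZEB1. The window of 500 bases gave 0.0485 in CD44 and -0.536 in ZEB1, and no value in VIM and ESRP1. The plus strand gave 1.02 in CDH1, and the minus strand 0.302 in CDH2 and 0.0266 in CD44. Every CpG of the rule gave 4.36 in CDH13. Added after the data were seen were the median over CpGs, 2.9 in CDH13, and CDH1 without its CpG of the largest difference, 0.481. Leaving out each library gave -3.28 to -0.0669 in CDH1, -1.95 to 0.665 in CDH2, -1.30 to 0.350 in CDH13, -0.0629 to 0.0564 in CD44, -0.257 to -0.0693 in VIM, -0.0383 to 0.621 in ZEB1, 0.0750 to 2.19 in EPCAM and -0.104 to 1.76 in ESRP1. By distance it gave -1.57 to -0.228 within 500 bases, -0.822 to 0.166 upstream and -0.0717 to 1.78 downstream. The upstream value was above 0 without SAM replicate 1 (0.166) or SAM replicate 2 (0.0333), and the downstream one below 0 without control replicate 3 (-0.0717). Libraries of equal number did not deviate together (correlations -0.00509, 0.00846 and -0.00791). This cannot exclude a pairing, since SAM replicate 3 and control replicate 2, of 1 coverage set, gave only 0.011. No pairing was assumed in the main tests. In the replicate block the window differences were the same by construction, -1.90 in CDH1 for one, with a smallest sign-flip p of 0.25. A minimum of 20 reads gave no value for EPCAM, and single strands none for VIM and EPCAM on the plus strand. The shallowest libraries, replicate 2 of each group, limit what the windows can show, and a count of 0 calls does not show that methylation was alike.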
